A study of Canis lupus with 24 samples.

Results

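The keratin genes were described over the 24 arrays of a study of K9TCC, an established line of dog bladder cancer (transitional cell carcinoma). Members were the array features whose platform annotation gave 1 gene symbol made of KRT, digits and at most 1 further letter. This gave 52 keratin genes of 16295 genes with 1 symbol, each with 1 feature, so no choice between features was needed. One further feature named both KRT27 and KRT28 and was not used. KRT14, KRT16 and KRT9 were not among the features with 1 symbol and were not analysed here.

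Keratins are the intermediate filament proteins of epithelial cells. Every keratin filament pairs a type I (acidic) with a type II (basic) keratin, and the pair in use marks the kind of epithelium and its layer. KRT8 with KRT18 is the pair of simple epithelia, and KRT7 and KRT19 join it in ducts and in the bladder lining (urothelium), where KRT20 marks the umbrella cells of the surface. KRT5 is the type II keratin of basal cells, KRT1 with KRT10 replaces the basal pair in the upper layers of epidermis, and KRT4 with KRT13 does so in moist stratified epithelia. KRT6A and KRT17 are keratins of wounded and rapidly growing stratified epithelium. In bladder cancers, KRT5 is a marker of basal tumours, and KRT1 and KRT10 mark squamous differentiation.

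The line was grown as cancer stem cell spheres in ultralow attachment plates, in serum-free medium with EGF and bFGF and over at least 5 passages, or as adherent cells in medium with fetal bovine serum. For 24 h, 50 µM mavacoxib was given to each form to block COX-2, which makes prostaglandins. Other cultures had a COX-2 siRNA with a lipid transfection reagent for 48 h. The controls were a negative control siRNA with the same reagent for 48 h and DMSO, the solvent of the drug (0 µM), for 24 h. There were 3 arrays in each of the 8 groups. All groups came from 1 cell line, and no label says that the arrays of a group were separate cultures. The p-values therefore cover only the spread of these arrays, which may be technical. The treatment protocol describes the seeding before transfection as anchorage dependent for both forms. The design text uses the same term for the growth of spheres, so the labels do not settle whether transfected spheres were attached.

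Values are log2 signals as deposited, which ran from 0.60 to 13.51, with 4.82 as the median of all values. They carry no detection calls. A difference whose lower group lay under 4.82 is a lower bound if that signal is background. Signals of different features cannot be ranked against each other, so levels are compared only within a gene. Array medians lay between 4.68 and 5.02, and arrays of a group correlated at 0.981 to 0.996. PTGS2 encodes COX-2, and its signal did not fall with the siRNA against it. It was 1.16 ± 0.13 higher in spheres (adjusted p = 2.57e-07) and differed by 0.33 ± 0.13 in adherent cells (adjusted p = 0.0888). The groups are therefore called labelled COX-2 siRNA. Each difference is on the log2 scale with the standard error that limma gave when all 24 arrays were fitted together. The words rose, fell, higher and lower are used of genes with an adjusted p (Benjamini-Hochberg, over 16295 genes) under 0.05.

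In all 4 sphere groups the means of KRT5, KRT6A, KRT17, KRT75, KRT1, KRT10, KRT4 and KRT15 lay over the median of all values, as did those of KRT7, KRT18, KRT19 and KRT80. In the adherent groups the last 4 of these genes and KRT6A did, and KRT5, KRT17, KRT75, KRT1, KRT10, KRT4 and KRT15 did not. The group mean was over 4.82 for 14 to 17 keratins in the 4 sphere groups and for 6 or 7 in the 4 adherent groups. Over all 24 arrays, 13 keratins had a mean over 4.82 and 39 did not, and 23 lay at or under it on each array. Group means of 26 keratins spanned at least 1 log2 unit.

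**Figure D1:**
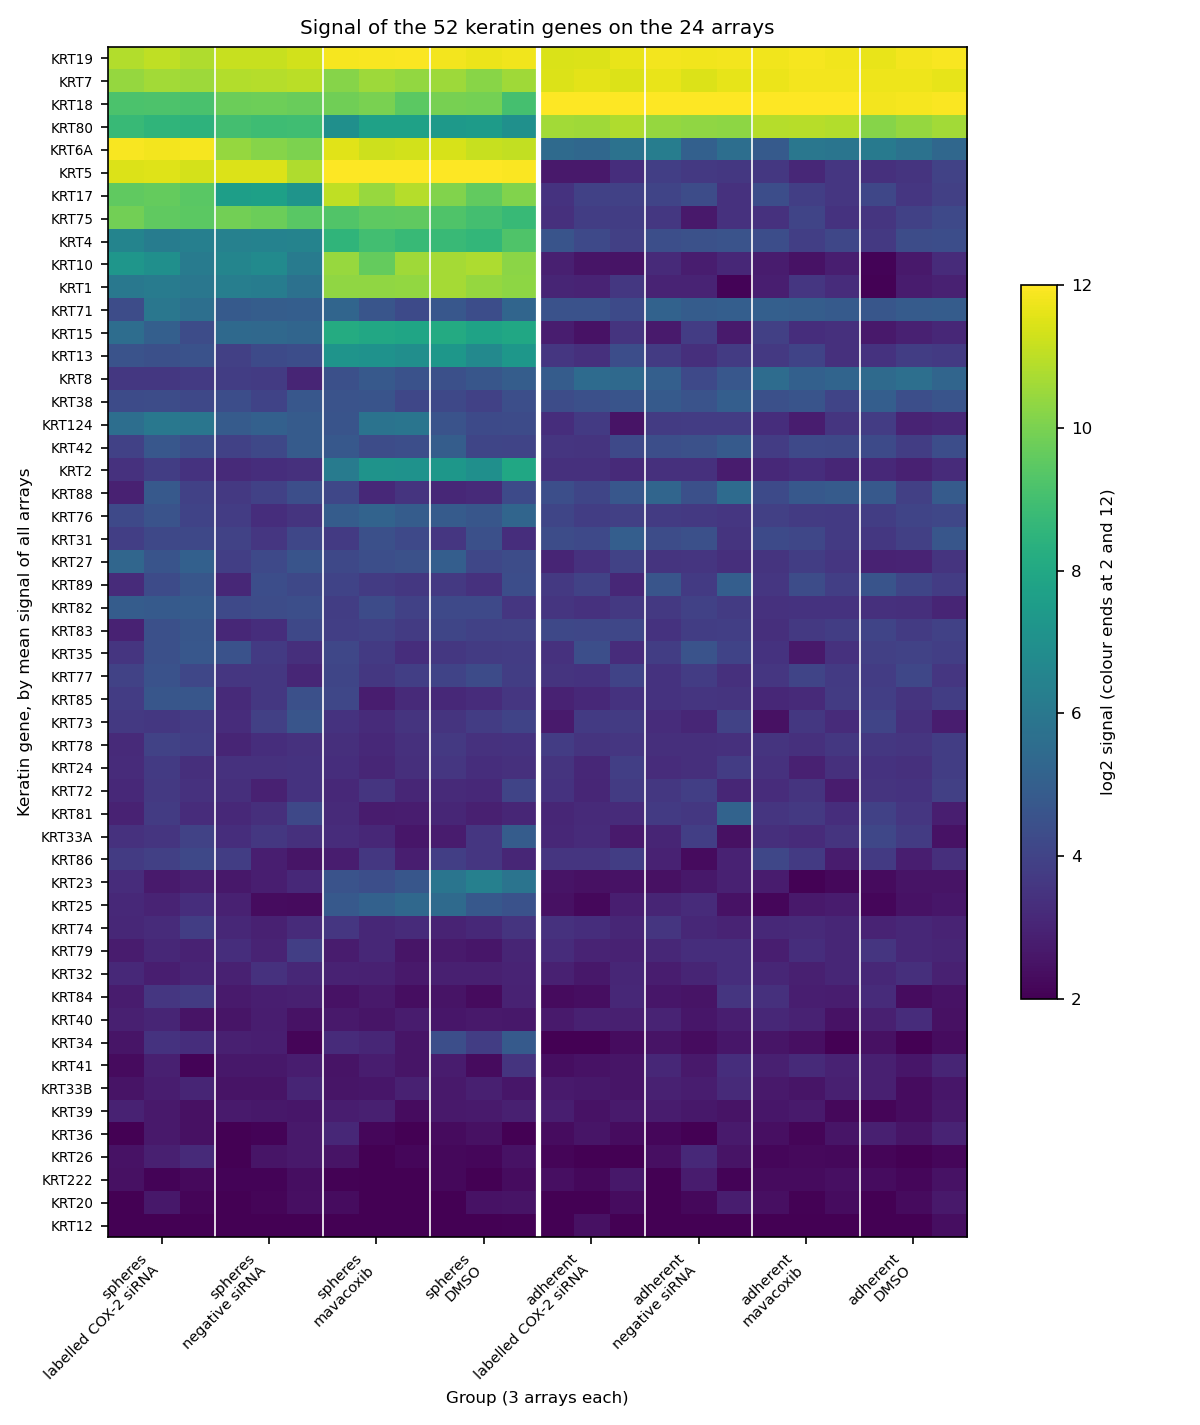
Log2 signal of the 52 keratin genes (rows, ordered by their mean over all arrays) on the 24 arrays (columns, 3 per group). The thick white line separates spheres on the left from adherent cells on the right, and colours end at 2 and 12. KRT5, KRT6A, KRT17, KRT75, KRT1 and KRT10 are bright in the sphere columns, KRT18 and KRT80 are brighter in the adherent ones, and most rows under KRT13 stay dark throughout.

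The first question is how the culture forms differed. The forms also differ in plates, serum and added growth factors, which cannot be told apart. With DMSO, 17 keratins were higher and 7 lower in spheres than in adherent cells. These 24 of 52 are 46.2%, next to 46.1% of all genes (22.8% higher and 23.3% lower), so the share of keratins that differed was near that of all genes. Large differences were a greater share: 12 keratins (23.1%) differed at least 8-fold, against 3.39% of all genes. The median keratin difference was 0.10, and -0.03 over all genes. The arrays of the 2 forms did not overlap for 26 of 52 keratins (50.0%) and for 51.8% of all genes, and 22 of the 24 called keratins were among these. In 20 of the 24 the lower group averaged under 4.82.

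KRT5, the basal keratin, was bright in spheres and dim in adherent cells. It read 12.06, 12.13 and 11.93 in DMSO spheres, against 3.40, 3.50 and 3.97 in DMSO adherent cells, and was 8.42 ± 0.19 higher in spheres (adjusted p = 1.03e-19). All 12 sphere arrays lay between 10.81 and 12.31 and all 12 adherent arrays between 2.67 and 3.97, the dimmest being adherent arrays labelled COX-2 siRNA. KRT15, a type I keratin of basal cells, averaged 7.96 ± 0.16 in spheres and 2.91 ± 0.22 in adherent cells with DMSO (SD, n = 3 each) and rose by 5.05 ± 0.29 (adjusted p = 9.23e-13). Both measured basal keratins of the 3 listed were thus higher in spheres, next to 22.8% of all genes.

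The suprabasal pair was also bright in spheres and dim in adherent cells. KRT1 read 10.67, 10.43 and 10.31 in DMSO spheres and 2.05, 2.75 and 2.92 in DMSO adherent cells, a difference of 7.90 ± 0.24 (adjusted p = 1.6e-17). KRT10 read 10.66, 10.77 and 10.28 in DMSO spheres and 2.08, 2.69 and 3.24 in DMSO adherent cells, a difference of 7.90 ± 0.28 (adjusted p = 2.48e-16). The groups were far apart for both genes, and both adherent groups lay under 4.82. KRT2, the type II keratin of the outermost living layers of epidermis, was 4.29 ± 0.23 higher, and KRT23, a type I keratin, 3.59 ± 0.19 higher. Of 7 measured suprabasal keratins, 4 were higher, 1 (KRT80) was lower and KRT24 and KRT77 did not pass. Among all genes 22.8% were higher and 23.3% lower.

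The measured stress and wound keratins KRT17 and KRT6A were higher in DMSO spheres, as was KRT75, which was placed in the same list. KRT17 read 10.12, 9.61 and 10.11 in spheres and 4.14, 3.59 and 3.91 in adherent cells with DMSO and rose by 6.07 ± 0.23 (adjusted p = 6.52e-16). KRT6A, which read 11.38, 11.16 and 11.09 in spheres, was over the median of all values in adherent cells too, at 6.07, 5.76 and 5.35. Its difference was 5.48 ± 0.26 (adjusted p = 4.18e-14), with every sphere array over every adherent array. KRT75, the keratin of the companion layer of hair follicles, was 5.10 ± 0.23 higher. The annotation gave 1 KRT6 gene; near-identical copies in the genome could share its probes, and the same holds for hair keratins such as KRT81 and KRT86.

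Among 6 measured mucosal and corneal keratins, 3 were higher and 3 did not pass, next to 22.8% of all genes higher. The pair of moist stratified epithelia moved together: KRT4 averaged 8.90 ± 0.32 in DMSO spheres and 4.11 ± 0.40 in DMSO adherent cells, and KRT13 7.09 ± 0.35 in DMSO spheres and 3.66 ± 0.17 in DMSO adherent cells. KRT4 was 4.79 ± 0.19 and KRT13 3.43 ± 0.22 higher (adjusted p = 2.14e-15 and 5.38e-12). KRT76, a keratin of the palate and gum, rose by 0.95 ± 0.16. Of 7 inner root sheath keratins KRT25 (2.49 ± 0.24) and KRT27 (1.32 ± 0.24) rose, and of 16 hair shaft keratins KRT34 (2.14 ± 0.28) and KRT82 (0.74 ± 0.15) rose. KRT124, to which no role list was assigned, rose by 1.08 ± 0.30. In DMSO spheres KRT25 lay between 4.53 and 5.47 and KRT34 between 3.81 and 4.82, near or under the median of all values.

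Simple epithelial keratins and KRT80 were on the other side. KRT18 read 9.95, 9.90 and 9.06 in DMSO spheres and 11.83, 11.86 and 11.94 in DMSO adherent cells, and was 4.72-fold lower in spheres (-2.24 ± 0.17, adjusted p = 1.06e-10). Sphere array 3 was the lowest, and all 3 lay under every adherent array. KRT7 read 10.52, 10.23 and 10.57 in spheres and 11.73, 11.74 and 11.62 in adherent cells with DMSO, a difference of -1.26 ± 0.11 (adjusted p = 1.65e-09). KRT80, a type II keratin of differentiating epithelia, read 7.39, 7.50 and 7.02 in spheres and 10.17, 10.40 and 10.61 in adherent cells with DMSO, and was 8.52-fold lower in spheres (-3.09 ± 0.16, adjusted p = 2.21e-13). KRT8 fell by 0.77 ± 0.21 (adjusted p = 0.00436), on a feature that read no more than 5.66 on any array.

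KRT19 was the bright simple keratin that did not pass with DMSO: it read 11.83, 11.70 and 11.77 in spheres and 11.68, 11.84 and 11.92 in adherent cells, and the difference of -0.05 ± 0.10 had a 95% interval of -0.25 to 0.15. KRT20 read between 1.82 and 2.82 on all 24 arrays and passed in no comparison. The uroplakins coat umbrella cells, and 3 of the 4 measured uroplakin genes were lower in spheres (23.3% of all genes were), beside KRT18 and KRT7. UPK1A averaged 3.83 ± 0.45 in DMSO spheres and 11.12 ± 0.24 in DMSO adherent cells, and UPK3A 3.81 ± 0.19 in DMSO spheres and 11.31 ± 0.02 in DMSO adherent cells. UPK2 was lower too (-4.66 ± 0.24), while UPK1B, the fourth measured uroplakin, was 1.56 ± 0.14 higher in spheres.

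A few dim keratins were lower in DMSO spheres with weaker evidence. KRT88 read 3.11, 3.21 and 4.23 in spheres and 4.80, 3.89 and 4.88 in adherent cells (-1.01 ± 0.40, adjusted p = 0.0431), with overlapping arrays. KRT38 (-0.49 ± 0.19) also overlapped, and KRT36 (-0.72 ± 0.28) did not; both are hair shaft keratins. These 3 calls were lost when single arrays were left out: KRT88 without adherent array 1 or 3 or sphere array 1 or 2 (adjusted p up to 0.164), KRT38 without adherent array 1 or 3 or sphere array 1 or 2 (up to 0.218), and KRT36 without adherent array 1 or 3 or sphere array 3 (up to 0.231). KRT36 was also lost after quantile normalization and with a replicate block, and KRT38 with only the 6 arrays of the comparison and with trend and robust variance.

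**Figure D2:**
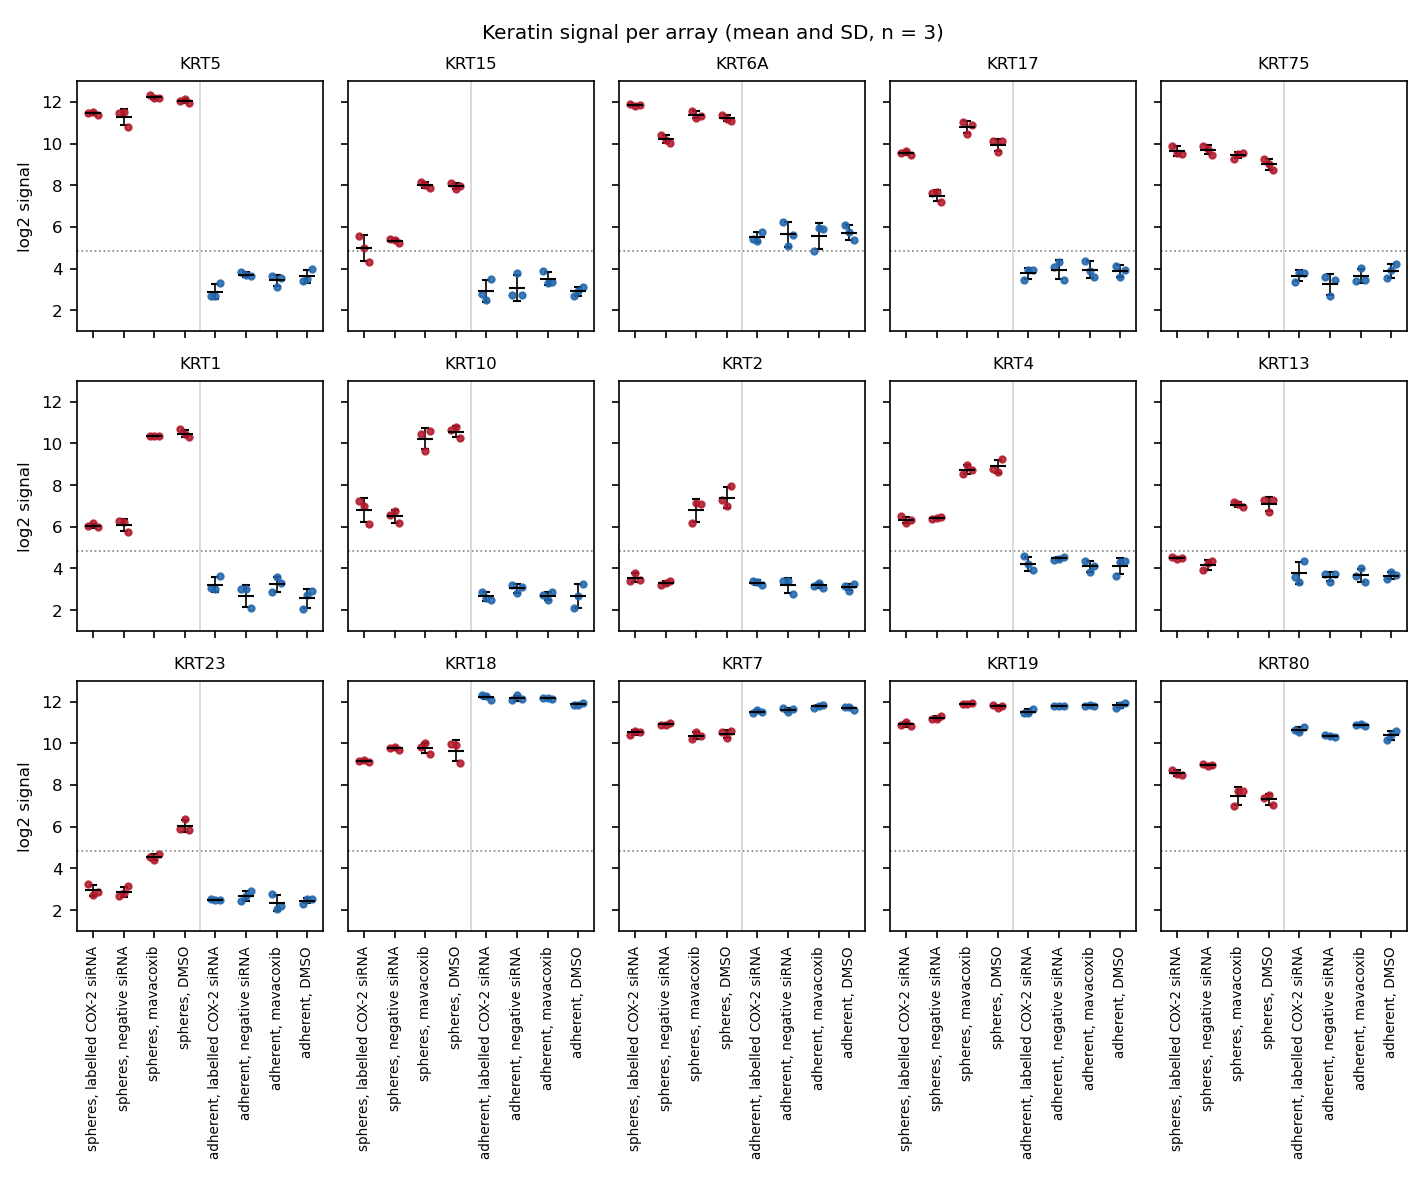
Log2 signal of 15 keratins in each array (points), with the mean and SD of 3 arrays (black), in 4 sphere groups (red) and 4 adherent groups (blue). The dotted line is the median of all values, 4.82. KRT5 and KRT75 stay high in all sphere groups, KRT1, KRT10, KRT2, KRT15, KRT4 and KRT13 are high in the mavacoxib and DMSO spheres and lower in both transfected sphere groups, KRT23 is over the dotted line in DMSO spheres alone, and KRT18, KRT7 and KRT80 are higher in the adherent groups.

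The same question can be asked on other arrays, with negative siRNA in place of DMSO. There 12 keratins were higher and 6 lower in spheres, 34.6% of the 52 next to 42.7% of all genes (20.5% higher and 22.1% lower), and 6 (11.5%) differed at least 8-fold, against 2.8% of all genes. The median was -0.09, and -0.06 over all genes. In all, 17 keratins passed in both comparisons, each in 1 direction: 12 higher and 5 lower. These are 70.8% of the keratins called with DMSO and 94.4% of those called with negative siRNA, and the 2 comparisons share no arrays. Over all genes, 4979 were called in both in 1 direction, 66.3% of those called with DMSO and 71.6% of those called with negative siRNA. After a shift of arrays to 1 median, 11 were higher and 9 lower with negative siRNA. That shift moved the median of all genes by -0.14 here and by -0.19 with DMSO, where it gave 17 higher and 9 lower, and no called keratin changed sign. Higher genes were 49.5% of all genes called with DMSO and 48.1% with negative siRNA, and 33.6% and 34.1% after the shift.

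KRT5 read 11.46, 11.49 and 10.81 in negative siRNA spheres and 3.84, 3.67 and 3.63 in negative siRNA adherent cells, a difference of 7.54 ± 0.19 (adjusted p = 7.67e-19). KRT75 read 9.89, 9.74 and 9.46 in negative siRNA spheres and 3.61, 2.67 and 3.43 in negative siRNA adherent cells and was 6.46 ± 0.23 higher (adjusted p = 1.75e-16). KRT6A read 10.43, 10.19 and 10.03 in negative siRNA spheres and 6.25, 5.06 and 5.60 in adherent cells, and rose by 4.58 ± 0.26. For these 3 genes every sphere array was far over every adherent one. With negative siRNA the forms did not overlap for 34.6% of the 52 keratins and 51% of all genes. KRT17 read 7.61, 7.68 and 7.19 in negative siRNA spheres and 4.07, 4.31 and 3.43 in adherent cells (3.56 ± 0.23), and KRT15 was 2.28 ± 0.29 higher.

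The suprabasal and mucosal differences were smaller on these arrays. KRT1 was 3.38 ± 0.24 and KRT10 3.46 ± 0.28 higher, KRT4 1.95 ± 0.19 and KRT13 0.57 ± 0.22, and KRT2 (0.12 ± 0.23, interval -0.36 to 0.60), KRT23 (0.20 ± 0.19, interval -0.18 to 0.59), KRT25 (-0.41 ± 0.24) and KRT34 (0.14 ± 0.28) did not pass. The call of KRT13 was lost after quantile normalization, after shifting arrays to 1 median and without adherent array 2 or sphere array 2 or 3 (adjusted p up to 0.158). 

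On the lower side, KRT18 read 9.75, 9.80 and 9.70 in negative siRNA spheres and 12.06, 12.30 and 12.13 in negative siRNA adherent cells (-2.41 ± 0.17). KRT80 read 9.00, 8.89 and 8.95 in negative siRNA spheres and 10.41, 10.35 and 10.30 in negative siRNA adherent cells (-1.41 ± 0.16). KRT8 read 3.83, 3.73 and 3.05 in negative siRNA spheres and 5.01, 4.22 and 4.72 in negative siRNA adherent cells (-1.11 ± 0.21), a dim feature. KRT7 (-0.69 ± 0.11) and KRT19 (-0.59 ± 0.10) were lower too, so 4 of 5 simple epithelial keratins were lower with negative siRNA and 3 of 5 with DMSO. The shares of all genes that were lower were 22.1% and 23.3%. KRT88, at 3.67, 3.94 and 4.42 in spheres and 5.26, 4.43 and 5.50 in adherent cells (-1.05 ± 0.40), and KRT27 (0.76 ± 0.24) lost their calls without 1 of several arrays: KRT88 without adherent array 1 or 3 or sphere array 1 or 2 (adjusted p up to 0.152), and KRT27 without array 3 of either form (up to 0.0924).

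The difference between the forms was itself different with negative siRNA and with DMSO at 16 keratins (30.8% of the 52 next to 17.1% of all genes, 7.77% higher and 9.29% lower), 13 lower and 3 higher with negative siRNA. KRT1 (-4.52 ± 0.34, adjusted p = 4.42e-09), KRT10 (-4.44 ± 0.40, adjusted p = 5.16e-08) and KRT2 (-4.17 ± 0.33, adjusted p = 5.75e-09) were among the 13. KRT75 (1.36 ± 0.32) and KRT80 (1.68 ± 0.23) moved the other way. KRT5 differed by -0.88 ± 0.27 (adjusted p = 0.026), a call lost with arrays shifted to 1 median and without adherent DMSO array 1 or 2, sphere DMSO array 2, adherent negative siRNA array 1 or sphere negative siRNA array 3 (adjusted p up to 0.0801).

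**Figure D3:**
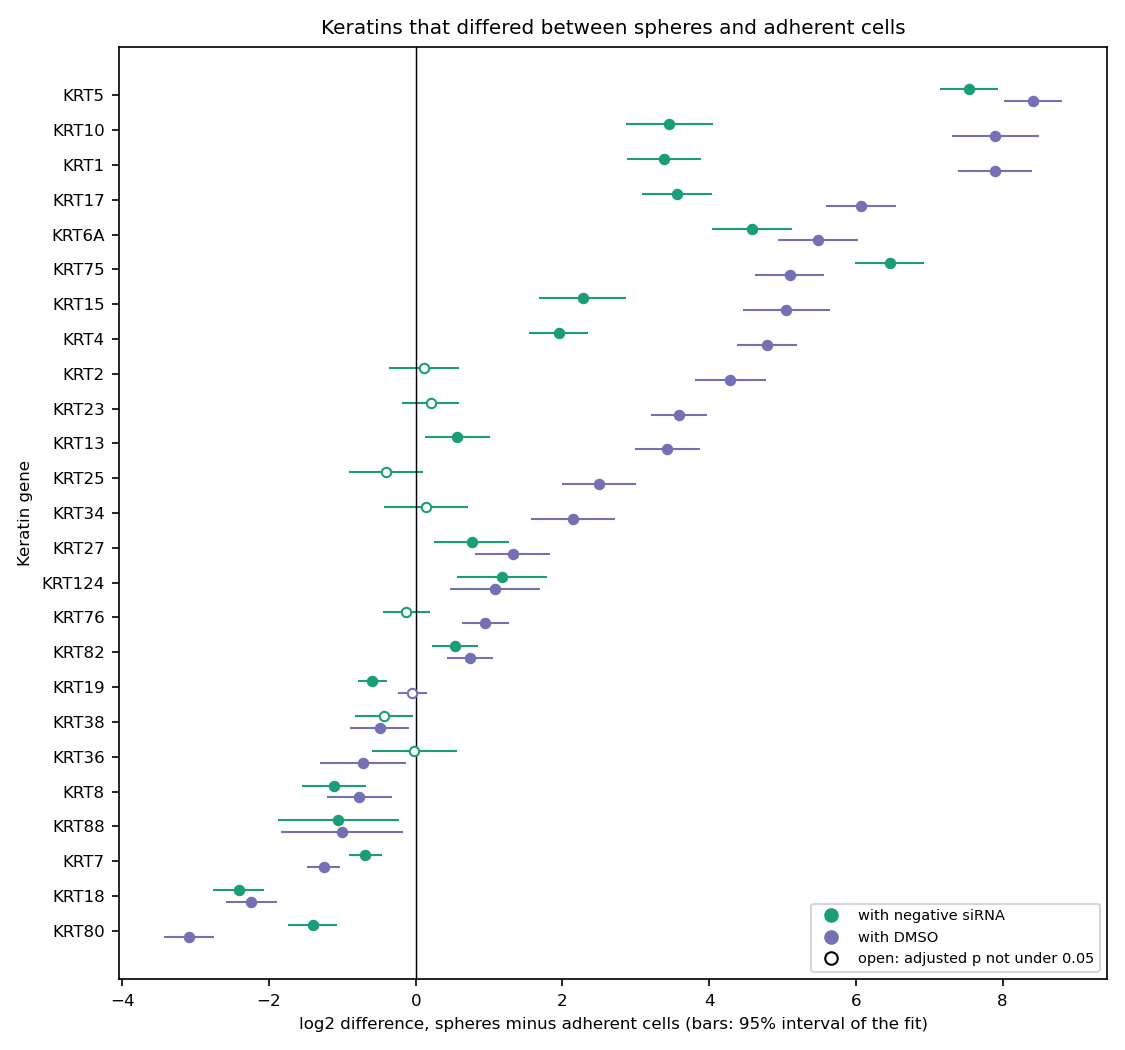
Log2 difference of spheres minus adherent cells (points) with its 95% interval, for the 25 keratins called with DMSO (purple), with negative siRNA (green) or both; open points did not pass. KRT5, KRT6A and KRT75 lie far to the right in both, KRT1 and KRT10 are near 8 with DMSO and near 3.4 with negative siRNA, and the intervals of KRT2, KRT23, KRT25 and KRT34 include 0 with negative siRNA.

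The control arms were also compared within each form. In spheres, 4 keratins were higher and 16 lower with negative siRNA than with DMSO, 38.5% of the 52 next to 35.3% of all genes (19% higher and 16.4% lower), and 4 of the falls (7.69%) were at least 8-fold, against 0.288% of all genes. The arms differ in the transfection, its reagent and siRNA, the time of 48 or 24 h and the seeding step, which cannot be told apart. This comparison shares the DMSO sphere arrays with the comparison of forms under DMSO.

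KRT1 read 6.26, 6.21 and 5.74 in negative siRNA spheres, against 10.67, 10.43 and 10.31 in DMSO spheres, and fell by 4.40 ± 0.24 (adjusted p = 6.23e-12). KRT10 read 6.56, 6.77 and 6.16 in negative siRNA spheres, against 10.66, 10.77 and 10.28 in DMSO spheres, and fell by 4.07 ± 0.28 (adjusted p = 1.92e-10). KRT2 read 3.19, 3.32 and 3.40 with negative siRNA and 7.28, 6.99 and 7.94 with DMSO (-4.10 ± 0.23, adjusted p = 7.81e-12). The negative siRNA arrays of KRT2 lay within the range of the adherent arrays, 2.78 to 3.40. KRT23 read 2.65, 2.84 and 3.14 in negative siRNA spheres and 5.90, 6.37 and 5.84 in DMSO spheres (-3.16 ± 0.19, adjusted p = 1.39e-11). In these genes, no array with negative siRNA reached the lowest DMSO array. The arrays of these 2 groups did not overlap for 42.3% of the 52 keratins and 41.2% of all genes.

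Lower by smaller amounts were KRT13 (-2.91 ± 0.22), KRT15 (-2.61 ± 0.29), KRT4 (-2.47 ± 0.19), KRT17 (-2.45 ± 0.23), KRT25 (-2.40 ± 0.24), KRT34 (-1.73 ± 0.28), KRT76 (-1.41 ± 0.16), KRT8 (-1.15 ± 0.21), KRT6A (-0.99 ± 0.26), KRT5 (-0.79 ± 0.19), KRT77 (-0.62 ± 0.20) and KRT19 (-0.55 ± 0.10). KRT5 thus fell by under 1 on the log2 scale where KRT1 and KRT10 fell by over 4. By role list, 5 of 7 suprabasal keratins fell and 1 rose, and both basal keratins fell, next to 16.4% of all genes lower and 19% higher. Of 6 genes listed as mucosal and corneal keratins 3 fell, and 1 rose. The last was KRT79, a keratin of hair canals and sebaceous ducts that was placed in that list. Of the 16 hair shaft keratins KRT34 alone changed.

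KRT80 was among the 4 that rose, with 9.00, 8.89 and 8.95 in negative siRNA spheres and 7.39, 7.50 and 7.02 in DMSO spheres (1.64 ± 0.16, adjusted p = 3.96e-08). KRT75 read 9.89, 9.74 and 9.46 in negative siRNA spheres and 9.24, 9.02 and 8.74 in DMSO spheres (0.70 ± 0.23, adjusted p = 0.0185). KRT7 read 10.86, 10.90 and 10.97 with negative siRNA and 10.52, 10.23 and 10.57 with DMSO (0.47 ± 0.11, adjusted p = 0.00161). KRT79, a keratin of hair canals and sebaceous ducts, read 3.31, 3.00 and 3.84 in negative siRNA spheres and 2.74, 2.60 and 3.04 in DMSO spheres with overlapping arrays (0.59 ± 0.19, adjusted p = 0.0206). Of the 20 calls, 3 did not hold throughout: KRT75 was lost without DMSO array 3 or negative siRNA array 1 or 2 (adjusted p up to 0.0882), KRT77 without DMSO array 2 or negative siRNA array 3 (up to 0.116), and KRT79 with only the 6 arrays of the comparison and without DMSO array 1 or 2 or negative siRNA array 3 (up to 0.168).

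In adherent cells 2 keratins differed between the same control arms, 3.85% next to 13.9% of all genes (8.74% higher and 5.11% lower, so that higher genes were 63.1% of those called, and 52.4% after quantile normalization). KRT8 read 5.01, 4.22 and 4.72 with negative siRNA and 5.45, 5.66 and 5.27 with DMSO (-0.81 ± 0.21, adjusted p = 0.0132). KRT82, a cuticle keratin of hair, read 3.66, 3.95 and 3.75 in negative siRNA adherent cells and 3.39, 3.33 and 3.02 in DMSO adherent cells (0.54 ± 0.15, adjusted p = 0.0192). KRT8 lost its call without array 2 of either arm (adjusted p up to 0.0968), and KRT82 without DMSO array 3 or negative siRNA array 2 (up to 0.106). The count was 4 without negative siRNA array 1, 1 without DMSO array 2 or 3 and 0 without negative siRNA array 2. The keratin split was 1 higher and 2 lower after quantile normalization, and 2 higher and 1 lower with arrays shifted to 1 median. The count of all genes, 2257, was 1427 without DMSO array 2, 1435 without negative siRNA array 2 and 1444 without negative siRNA array 3.

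The next question is how the keratins stood with labelled COX-2 siRNA. In spheres the stress keratins KRT17 and KRT6A were higher than with negative siRNA and the simple keratins KRT18, KRT7 and KRT19 lower. In all, 10 keratins were higher and 3 lower, 25.0% of the 52 next to 39% of all genes (15.8% higher and 23.3% lower), and the median was 0.18, against -0.04 over all genes. The split was 6 higher and 4 lower after quantile normalization, and 7 higher and 5 lower with arrays shifted to 1 median, a shift that moved the median of all genes by -0.11. Higher genes were 40.4% of all genes called, and 28.7% after that shift. The negative siRNA sphere arrays also enter the comparisons above.

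KRT17 read 9.54, 9.64 and 9.45 in spheres labelled COX-2 siRNA and 7.61, 7.68 and 7.19 in negative siRNA spheres, and was 4.14-fold higher (2.05 ± 0.23, adjusted p = 2.9e-07). KRT6A read 11.92, 11.82 and 11.87 in spheres labelled COX-2 siRNA and 10.43, 10.19 and 10.03 in negative siRNA spheres, and was 3.15-fold higher (1.65 ± 0.26, adjusted p = 2.68e-05). Both genes had separated groups on bright features, in a comparison where 44.2% of all genes were separated. KRT124 read 5.61, 6.01 and 5.92 in spheres labelled COX-2 siRNA and 4.87, 5.06 and 4.88 in negative siRNA spheres (0.91 ± 0.30, adjusted p = 0.0175). KRT86, a hair shaft keratin, read 3.74, 3.90 and 4.18 in spheres labelled COX-2 siRNA and 3.81, 2.83 and 2.56 in negative siRNA spheres with overlapping arrays (0.87 ± 0.33, adjusted p = 0.0411).

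The other 6 rises, of KRT77 (0.77 ± 0.20), KRT27, KRT76 (0.72 ± 0.16), KRT25, KRT82 (0.55 ± 0.15) and KRT78, ran from 0.41 to 0.77. Those of KRT124, KRT86, KRT27, KRT25 and KRT78 were lost when single arrays were left out. All of these but KRT124 were also lost after quantile normalization, and KRT86, KRT25 and KRT78 with arrays shifted to 1 median. KRT86 and KRT78 were lost with only the 6 arrays of the comparison too, and KRT78 with trend and robust variance. Over all alternatives their highest adjusted p was 0.0626, 0.198, 0.0978, 0.142 and 0.258, in the order first named. Without labelled COX-2 siRNA array 3, the count of called keratins was 7 in place of 13.

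KRT18 read 9.15, 9.20 and 9.12 in spheres labelled COX-2 siRNA and 9.75, 9.80 and 9.70 in negative siRNA spheres, and fell by 0.59 ± 0.17 (adjusted p = 0.0065). KRT7 read 10.41, 10.60 and 10.55 in spheres labelled COX-2 siRNA and 10.86, 10.90 and 10.97 in negative siRNA spheres and fell by 0.39 ± 0.11 (adjusted p = 0.00663). KRT19 read 10.86, 11.04 and 10.82 in spheres labelled COX-2 siRNA and 11.16, 11.16 and 11.33 in negative siRNA spheres and fell by 0.31 ± 0.10 (adjusted p = 0.0134). In all 3, every array labelled COX-2 siRNA lay under every negative siRNA array, with differences of 0.31 to 0.59. Such separation was found for 25.0% of the 52 keratins and 44.2% of all genes in this comparison. KRT19 lost its call with only the 6 arrays of the comparison and without array 3 of either group (adjusted p up to 0.105). KRT5 (0.19 ± 0.19, interval -0.20 to 0.59), KRT1 (-0.02 ± 0.24, interval -0.53 to 0.49), KRT10 (0.30 ± 0.28, interval -0.29 to 0.89) and KRT75 (-0.06 ± 0.23) did not pass.

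In adherent cells, 5 keratins were lower with labelled COX-2 siRNA and 0 higher, 9.62% next to 15% of all genes (6.42% higher and 8.59% lower), with a median of -0.14 against -0.05. KRT5 read 2.69, 2.67 and 3.32 with labelled COX-2 siRNA and 3.84, 3.67 and 3.63 with negative siRNA (-0.82 ± 0.19, adjusted p = 0.00492). Its arrays did not overlap, as for 32.7% of the 52 keratins and 33.1% of all genes. Its call held under every alternative, but both groups lay under the median of all values. KRT19 read 11.44, 11.46 and 11.65 in adherent cells labelled COX-2 siRNA and 11.81, 11.80 and 11.81 in negative siRNA adherent cells (-0.29 ± 0.10, adjusted p = 0.0458). It was the 1 called keratin over that median.

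KRT81 read 3.08, 3.20 and 3.22 in adherent cells labelled COX-2 siRNA and 3.70, 3.64 and 5.17 in negative siRNA cells (-1.0 ± 0.33), and negative siRNA array 3 stood apart. KRT42 read 3.55, 3.52 and 4.19 in adherent cells labelled COX-2 siRNA and 4.41, 4.49 and 4.82 in negative siRNA adherent cells (-0.82 ± 0.26). KRT26, an inner root sheath keratin, read 2.14, 1.98 and 2.00 in adherent cells labelled COX-2 siRNA and 2.41, 3.15 and 2.53 in negative siRNA adherent cells (-0.66 ± 0.20). The calls of KRT19, KRT81, KRT42 and KRT26 were lost when single arrays were left out (adjusted p up to 0.16, 0.307, 0.159 and 0.188); KRT19 was also lost after quantile normalization, with arrays shifted to 1 median and with only the 6 arrays of the comparison, KRT81 and KRT26 with only those arrays, and KRT81 with a replicate block. The count of 5 was 2, 1 and 3 without labelled COX-2 siRNA array 1, 2 or 3, and 3 and 2 without negative siRNA array 2 or 3; without the last, 1566 of all genes passed in place of 2445. After quantile normalization 1 keratin was higher and 4 were lower.

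The response to the labelled siRNA differed between the forms at 8 keratins (15.4% of the 52 next to 15.3% of all genes), of which 7 changed more upward in spheres and 1 more downward (6.74% and 8.53% of all genes). Upward genes were 44.2% of all genes called, and 26.6% with arrays shifted to 1 median. KRT17 (2.21 ± 0.33, adjusted p = 7e-05) and KRT6A (1.78 ± 0.37, adjusted p = 0.00221) were among the 7: in adherent cells KRT17 changed by -0.16 ± 0.23 and KRT6A by -0.13 ± 0.26, neither passing. KRT5 differed by 1.01 ± 0.27 (adjusted p = 0.0127), with changes of 0.19 in spheres and -0.82 among the dim adherent arrays. The split was 5 and 2 after quantile normalization and 6 and 2 with arrays shifted to 1 median, which moved the median of all genes by -0.12. The count was 13 without sphere array 1 labelled COX-2 siRNA.

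The last question is the response to mavacoxib. In spheres 2 keratins rose and 2 fell, 7.69% of the 52 next to 21.4% of all genes (11.1% higher and 10.3% lower), with a median of -0.04 against -0.01. KRT23 read 4.55, 4.40 and 4.68 in mavacoxib spheres and 5.90, 6.37 and 5.84 in DMSO spheres, and fell by 1.49 ± 0.19 (adjusted p = 4.09e-06). KRT34 read 3.23, 3.09 and 2.56 in mavacoxib spheres and 4.40, 3.81 and 4.82 in DMSO spheres and fell by 1.38 ± 0.28 (adjusted p = 0.000915). The groups were separated for both, as for 19.2% of the 52 keratins and 30.1% of all genes. Both calls held under every alternative run for them. The test without dim genes was not among these, since both genes were dropped there. KRT34 lay at or under 4.82 on all these arrays, and KRT23 lay under it with mavacoxib.

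KRT17 read 11.03, 10.47 and 10.90 in mavacoxib spheres and 10.12, 9.61 and 10.11 in DMSO spheres and rose by 0.85 ± 0.23 (adjusted p = 0.0101). KRT124 read 4.58, 5.82 and 5.90 in mavacoxib spheres and 4.57, 4.24 and 4.29 in DMSO spheres and rose by 1.07 ± 0.30 (adjusted p = 0.0119), mavacoxib array 1 standing close to the DMSO arrays. KRT17 lost its call without DMSO array 2 or mavacoxib array 1 (adjusted p up to 0.0626), and KRT124 without mavacoxib array 2 or 3 (up to 0.0773). Of the basal and suprabasal keratins KRT23 alone passed. KRT5 stood at 0.18 ± 0.19 (interval -0.21 to 0.58), KRT1 at -0.12 ± 0.24 (interval -0.63 to 0.39), KRT10 at -0.34 ± 0.28 (interval -0.93 to 0.25) and KRT2 at -0.61 ± 0.23 (adjusted p = 0.0635).

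In adherent cells limma called 0 of 52 keratins with mavacoxib, next to 4.12% of all genes (2.61% higher and 1.5% lower), and 4 had an unadjusted p under 0.05. Higher genes were 63.5% of all genes called, and 53.3% after quantile normalization. Of the 52, KRT80 had the smallest p: it read 10.89, 10.92 and 10.85 with mavacoxib and 10.17, 10.40 and 10.61 with DMSO (0.49 ± 0.16, adjusted p = 0.095). Its arrays did not overlap, as for 9.62% of the 52 keratins and 27.2% of all genes. KRT18 (0.27 ± 0.17), KRT7 (0.08 ± 0.11, interval -0.14 to 0.31) and KRT5 (-0.19 ± 0.19) did not pass. With trend and robust variance 1 keratin passed, 1 passed when only genes with a mean over the median of all values were tested, and leaving out any 1 array gave 0. Over all genes, 671 passed, and this was 344 or 427 when DMSO array 1 or 2 was left out and 394, 421 or 414 when mavacoxib array 1, 2 or 3 was.

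The mavacoxib response differed between the forms at 2 keratins (3.85% of the 52 next to 10.3% of all genes, 4.49% higher and 5.82% lower). KRT23 had a lower change in spheres by 1.39 ± 0.26 (adjusted p = 0.0012) and KRT34 by 1.50 ± 0.39 (adjusted p = 0.0155). In adherent cells KRT23 read 2.78, 2.05 and 2.21 with mavacoxib and 2.30, 2.51 and 2.54 with DMSO, and KRT34 2.58, 2.40 and 1.97 in mavacoxib adherent cells and 2.46, 1.79 and 2.35 in DMSO adherent cells, all far under the median of all values. The call of KRT34 was lost without adherent DMSO array 2 (adjusted p = 0.0528).

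**Figure D4:**
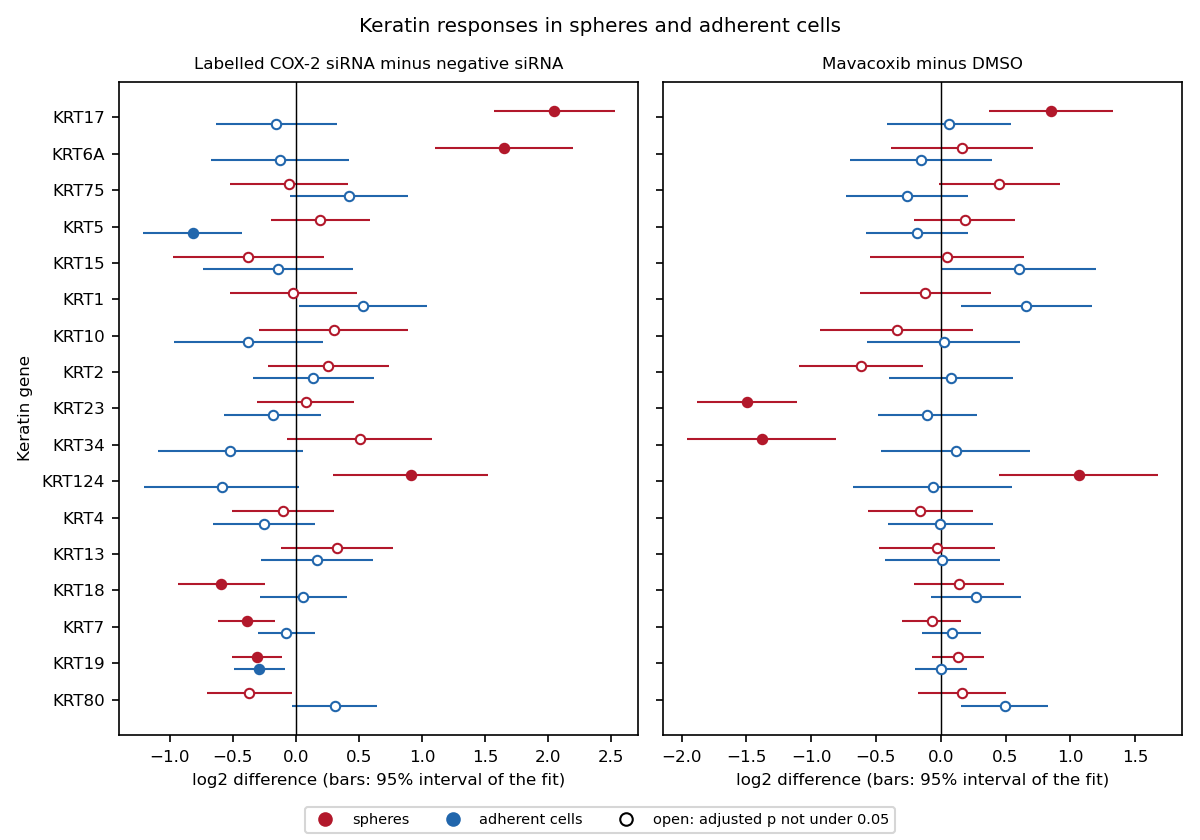
Log2 difference (points) with its 95% interval for 17 keratins, of labelled COX-2 siRNA minus negative siRNA (left) and mavacoxib minus DMSO (right), in spheres (red) and adherent cells (blue); open points did not pass. KRT17 and KRT6A lie at 2.05 and 1.65 in the left panel in spheres and near 0 in adherent cells, and KRT23 and KRT34 lie at -1.49 and -1.38 in spheres in the right panel.

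Genes that work with keratins were taken as fixed lists. Of 16 other intermediate filament genes, 5 were higher and 1 lower in DMSO spheres than in DMSO adherent cells (37.5% called, against 46.1% of all genes). VIM, the filament protein of mesenchymal cells, was 1.97 ± 0.10 higher, with 11.82 ± 0.07 in spheres and 9.85 ± 0.10 in adherent cells, so it was bright in both. PRPH, a neuronal filament protein, was 2.38 ± 0.20 and the lens filament gene BFSP1 1.64 ± 0.19 higher, and LMNB1, a nuclear lamin, stood at -1.36 ± 0.11. With negative siRNA 6 were higher and 0 lower (37.5% called, against 42.7% of all genes), and VIM stood at 1.44 ± 0.10. VIM also rose with mavacoxib in adherent cells (0.64 ± 0.10, adjusted p = 0.000368), where no keratin passed. In negative siRNA against DMSO spheres 4 rose and 4 fell (50.0% called, against 35.3% of all genes), with LMNB1 at 1.98 ± 0.11.

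Of 13 measured proteins that bind or link keratin filaments, 4 were higher and 3 lower in DMSO spheres (53.8% called, against 46.1% of all genes). TRIM29, a keratin-binding protein of basal cells, read 9.71, 9.77 and 10.13 in spheres and 3.51, 3.17 and 3.71 in adherent cells (6.41 ± 0.16, adjusted p = 4.16e-19). It was separated in the same way with negative siRNA (6.25 ± 0.16). DSP, the desmosomal plaque protein that anchors keratins, was 0.79 ± 0.12 higher and PPL, periplakin of the cornified envelope, stood at -1.64 ± 0.12. PKP1, a plakophilin of stratified epithelia, read 7.65, 7.91 and 8.25 in negative siRNA spheres and 9.48, 9.32 and 9.50 in DMSO spheres (-1.50 ± 0.13, adjusted p = 9.43e-09), and EVPL, envoplakin, stood at -1.15 ± 0.12. Both were lower beside KRT1 and KRT10. PKP1 rose with mavacoxib in spheres (0.86 ± 0.13), and PPL fell there with labelled COX-2 siRNA (-0.88 ± 0.12).

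Transcription factors of epithelia differed in both directions. Of 15 measured, 3 were higher and 10 lower in DMSO spheres (86.7% called, against 46.1% of all genes; 66.7% lower, against 23.3%). TP63, the master regulator of stratified epithelium, averaged 9.32 ± 0.11 in spheres and 4.54 ± 0.45 in adherent cells (4.78 ± 0.18, adjusted p = 7.91e-16). ELF3 (-3.97 ± 0.15), FOXA1 (-3.90 ± 0.17) and EHF (-2.22 ± 0.14), factors of luminal and glandular epithelium, were lower. Between negative siRNA and DMSO spheres 1 rose and 7 fell (53.3% called, against 35.3% of all genes), and the fall of TP63 was 1.27 ± 0.18 and that of GRHL3, a factor of barrier formation, 1.40 ± 0.15. In spheres labelled COX-2 siRNA 9 rose and 4 fell (86.7% called, against 39% of all genes), beside the rises of KRT17 and KRT6A. ELF3 stood at 1.70 ± 0.15 and KLF4, a factor of keratinocyte differentiation, at 1.65 ± 0.20. Values went the other way for ZNF750, with 5.16 ± 0.19 in spheres labelled COX-2 siRNA and 6.40 ± 0.22 in negative siRNA spheres. OVOL2 did likewise, at 5.36 ± 0.26 and 6.41 ± 0.32.

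Markers of other cells were followed beside these results. Fewer cells of a type and less RNA per cell cannot be told apart in such samples. None of 8 leukocyte markers had a group mean over 4.82 in any group, and 0 or 1 of 9 endothelial and muscle markers did. Of 9 fibroblast markers 4 did in DMSO spheres, against 1 in DMSO adherent cells, and the mean over the list ran from 4.51 to 4.64 in DMSO spheres and from 3.73 to 4.0 in DMSO adherent cells. In negative siRNA spheres it was 3.97 to 4.09, and in negative siRNA adherent cells 3.87 to 3.93. Of the 9, 4 were higher in DMSO spheres than in DMSO adherent cells (44.4%, against 22.8% of all genes higher), with COL3A1 at 2.82 ± 0.23 and THY1 at 2.15 ± 0.22, and 4 fell in negative siRNA against DMSO spheres (44.4%, against 16.4% of all genes), beside the falls of KRT1 and KRT10, with THY1 at -2.04 ± 0.22. Of the other fibroblast markers, DCN, LUM, FAP and PDGFRB had means under 4.82 in all groups. PDGFRA averaged 9.56 ± 0.17 in DMSO spheres and 9.60 ± 0.09 in DMSO adherent cells. With negative siRNA it averaged 7.69 ± 0.09 in spheres and 9.11 ± 0.01 in adherent cells, so it was bright in both forms. The part of the markers of other cells in the keratin differences was not tested.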

How the data were processed

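The deposited table holds log2 signals of 27766 features on 24 Affymetrix Canine Gene 1.1 ST arrays, made by the authors with Affymetrix Expression Console 1.1 per the submitters' processing notes; how they were summarised and normalized is not given in the sources used here. Platform annotation gave 1 symbol to 16878 features, more than 1 to 289 and no symbol to 10599. Each gene was represented by its brightest feature (521 genes had a choice), giving 16295 genes, with no filter on signal. Symbols were not updated. R 4.3.3 with limma 3.58.1 was used to fit 8 group means to the 24 arrays, with moderated variances (residual df 16, prior df 5.54). Tests of the 11 comparisons were two-sided, with Benjamini-Hochberg adjustment across the 16295 genes. The number of arrays limits the precision.

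The members, the gene lists and the tests were chosen with earlier results of these data known. By rule, array values of a comparison of 2 groups are given for KRT5, KRT1, KRT10, the 5 brightest keratins and the 4 largest called rises and falls of a comparison, and up to 4 members of other lists by smallest adjusted p. Results were recomputed after quantile normalization, after arrays were shifted to 1 median, without dim genes, with features averaged per gene, with every feature tested, with a separate fit for each comparison, with a robust variance trend, with a replicate block and without each array in turn. The fit was tested on simulated data. Equal replicate numbers were not taken as pairs in the main fit. Of 24 pairs of arrays with equal numbers, 8 correlated over 0.1 after group means were removed (-0.17 to 0.27). Arrays with unlike numbers were not correlated for comparison, so these values cannot settle whether arrays were paired.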

Additional observations from a re-analysis of the deposited data

Results flagged for a closer look

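A closer look is given to keratins whose change differed between 2 settings of the same contrast, by the test of the difference in the limma fit. The mavacoxib response in spheres minus that in adherent cells was -1.39 for KRT23 and -1.50 for KRT34.

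The response to the labelled COX-2 siRNA, spheres minus adherent cells, was 2.21 for KRT17, 1.78 for KRT6A, 1.50 for KRT124, 1.12 for KRT26, 1.08 for KRT25, 1.01 for KRT5, 0.80 for KRT82 and -0.68 for KRT80. The value of KRT80 kept its call under 7 of 20 alternatives and that of KRT25 under 10 of 19; KRT124 lost its call without adherent array 3 labelled COX-2 siRNA (adjusted p = 0.0577) and KRT82 after quantile normalization (0.0507).

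The difference of spheres from adherent cells, with negative siRNA minus with DMSO, was -4.52 for KRT1, -4.44 for KRT10, -4.17 for KRT2, -3.38 for KRT23, -2.90 for KRT25, -2.86 for KRT13, -2.84 for KRT4, -2.77 for KRT15, -2.51 for KRT17, -2.01 for KRT34, -1.08 for KRT76, -0.88 for KRT5 and -0.54 for KRT19. It was 0.57 for KRT7, 1.36 for KRT75 and 1.68 for KRT80. Of these 16, 15 held under all 20 alternatives run for them, or 19 for dim genes, the exception being KRT5.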

How the results depend on the processing

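Of 112 called keratin differences, 83 kept their call under every alternative run for them and 29 lost it under at least 1. Of 1668 values in all, 128 lost the threshold and 0 changed sign. Leaving out dim genes left 13 keratins, so the counts of called keratins were 1 for mavacoxib in adherent cells (0 with all genes), 1 for mavacoxib in spheres (4), 2 and 6 for labelled COX-2 siRNA in adherent cells and spheres (5 and 13), 11 for spheres against adherent cells with DMSO (24), 1 and 11 for negative siRNA against DMSO in adherent cells and spheres (2 and 20), and 0, 5 and 10 for the differences between mavacoxib responses, between siRNA responses and between the sphere differences (2, 8 and 16); it gave 1034 of all genes for mavacoxib in adherent cells (671). Trend and robust variance gave 1 keratin for mavacoxib and 4 for negative siRNA in adherent cells, and with only the arrays of the comparison 1904 of all genes passed for mavacoxib in spheres (3491).

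Leaving out single arrays gave 1 to 4 keratins for labelled COX-2 siRNA in adherent cells, 7 to 18 in spheres, 0 to 4 for negative siRNA against DMSO in adherent cells, 1 to 3 for the difference of mavacoxib responses and 6 to 13 for that of siRNA responses. For all genes it gave 344 to 500 for mavacoxib, 1566 to 1985 for labelled COX-2 siRNA and 1427 to 1835 for negative siRNA, all in adherent cells. The causes were not tested, beyond the smaller numbers of genes or arrays. As a replicate block, equal numbers gave 23 keratins with DMSO and 18 with negative siRNA for spheres against adherent cells; with this block KRT36 with DMSO (adjusted p = 0.0502), KRT81 with labelled COX-2 siRNA (0.0509) and KRT80 in the difference of siRNA responses (0.0598) lost their calls, and no other called keratin did. Signal limits the 39 of 52 keratins with a mean under 4.82.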

Other observations

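Among the keratins that could be placed along the chromosomes, those called between forms with DMSO were interspersed with keratins that did not pass. The wolf assembly mCanLup2.hap1 served to order genes, and 33 of the 52 symbols were found there. These were 17 type I keratins on 1 chromosome, and 16 genes, type II keratins with KRT18, on another. Genes that were not matched may lie between those named here. On the first, KRT10 (7.90 in spheres against adherent cells with DMSO) lies between KRT25 (2.49) and KRT12 (-0.14) among the matched keratins, and KRT23 (3.59) between KRT20 (0.04) and KRT39 (0.37). KRT13, KRT15, KRT19 and KRT17 follow each other among the matched keratins, with differences of 3.43, 5.05, -0.05 and 6.07. KRT19, which did not pass with DMSO, thus stands between matched genes with large rises. On the second, KRT1 (7.90) and KRT2 (4.29) are neighbours among the matched keratins, and KRT5 (8.42) lies between KRT71 (-0.03) and KRT82 (0.74). KRT6A and KRT75, both higher in spheres, were not matched, so their places relative to KRT5 are not known here. KRT18 with KRT8 at one end of the matched keratins and KRT7 with KRT80 at the other were all lower in spheres.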
